A study of Mus musculus with 12 samples.

Results

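The expression of 10 marker genes of auditory neuron types was read in sorted mouse spiral ganglion neurons: Calb1, Calb2, Pvalb, Prph, Th, Lypd1, Pcdh20, Ntng1, Ano2 and Rxrg. They were chosen by name, as genes that mark type I subtypes or type II neurons of the mature spiral ganglion. Earlier results of these data were known when they were chosen. Each matched 1 row among the 25674 genes of the count table. Neurons with the red reporter tdTomato were sorted at embryonic day 14.5, and each library is described as 100 cells from both ears of an embryo. The 6 control libraries carried Neurod1Cre and Rosa26tdTOM. The 6 libraries labelled Isl1CKO carried the same Cre and reporter together with Isl1loxP/loxP, so that Cre was present in both groups. In this design Cre comes from a Neurod1-cre BAC transgene, recombination is restricted to cells that have expressed it, and the mice were of mixed C57BL/6 and sv129 background and of either sex. A label tag calls the numbered libraries technical replicates while the design text calls them biological, so p-values measure the spread between these libraries.

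Type I neurons make up most of the spiral ganglion and each contacts an inner hair cell, whereas the thin type II neurons branch among outer hair cells. After birth, type I neurons split into subtypes that differ in calcium-binding proteins, adhesion molecules and receptors: Calb2 is high in the subtype often called Ia, Calb1 in Ib and Lypd1 in Ic. Type II neurons are recognised by the intermediate filament gene Prph and, in the maturing cochlea, by Th. The embryonic stage measured here precedes hearing, so the genes are read as named transcripts and not as proof of a subtype.

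Library totals ran from 11895603 to 13857480 counts. Levels are given in CPM, counts relative to library size after TMM scaling, and a floor of 3 counts lies at 0.219 to 0.250 CPM. Floors cover counting error only, because amplified reads without molecular identifiers are not independent molecules. Isl1 itself averaged 1538 ± 217 CPM in controls and 1391 ± 184 CPM in the libraries labelled Isl1CKO (SD, n = 6), which did not pass the test (edgeR adjusted p = 0.460), so the genotype rests on the labels. Libraries Isl1CKO 2, 3 and 5 held Xist together with Y-linked transcripts, and no control library did. Xist was at 62.9, 77.8 and 132 CPM in these libraries, and the Y-linked transcripts averaged 61.0, 87.3 and 35.7 CPM. The described unit of an embryo per library does not account for this, and its cause was not tested. Members were also read without Isl1CKO libraries 2, 3 and 5, as were called subtype markers and the called family genes of smallest p. Calls lost without them are stated. Other calls, including Pcdh7 and the cell type markers except Gata3, were not read without these libraries. All 7 pan-neuronal markers were tested, and their summed level was 8899 to 10312 CPM in controls and 10289 to 11536 CPM in the other group. Of the 7, Stmn2 was called higher and Elavl4 lower, with log2 ratios of 0.54 and -0.49 (edgeR adjusted p = 6.08e-04 and 0.00928). Of 8 spiral ganglion neuron markers, all tested, Ntrk2, Ntrk3 and Gata3 were called lower and Neurod1 higher, and the median log2 ratio was -1.005. The 8 macrophage markers summed to 1.55 to 355 CPM in controls and 0.875 to 629 CPM in the libraries labelled Isl1CKO, and the 7 Schwann cell and satellite glia markers found summed to 9.47 to 157 and 16.3 to 215 CPM. The median log2 ratio was 1.51 for the 6 macrophage markers tested and 1.07 for the 4 glial markers tested, and none of either list was called. The 7 otic mesenchyme markers summed to 38.1 to 84.2 and 69.9 to 120.4 CPM, with 2 of the 4 tested called higher. These were Tbx18, with group means of 1.09 and 39.5 CPM, and Col3a1, with 2.66 and 14.1 CPM. Pou3f4 and Twist1 of the same list went the other way. Pou3f4 had means of 52.9 and 27.4 CPM and was not called (edgeR adjusted p = 0.143). Twist1 had means of 1.13 and 0.0129 CPM and was below the filter. The 6 otic epithelium markers summed to 3.25 to 7.03 and 3.73 to 24.3 CPM. The 6 hair cell markers found summed to 253 to 538 and 293 to 580.0 CPM, mostly Myo6, while Gfi1 had group means at or below 0.179 CPM. Pou4f3 and Otof were highest in control 3, at 2.67 and 7.26 CPM, and Myo7a in Isl1CKO 4, at 15.2 CPM. Of the 4 hair cell markers tested, Ccer2 was called lower, from 36.7 ± 13.6 to 3.83 ± 2.46 CPM (SD, n = 6; edgeR adjusted p = 1.54e-04), with no overlap of the groups. In these bulk samples fewer cells of a type and less RNA per cell cannot be told apart.

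Of the 10 genes, 8 passed the expression filter and 5 of them passed an adjusted p of 0.05 in edgeR's quasi-likelihood test over all 14813 genes tested. Calb1, Pvalb, Lypd1 and Ntng1 were lower and Pcdh20 was higher in the libraries labelled Isl1CKO. Among all tested genes 10.2% were called, 5.19% lower and 5.01% higher. The 6 libraries of each group did not overlap for the same 5 genes, against 6.78% of all tested genes, 3.65% with the libraries labelled Isl1CKO below and 3.13% with them above. The log2 ratio is that of the libraries labelled Isl1CKO over the controls, so a negative value is a lower level. The median log2 ratio of the 8 was -1.50, beside 0.0045 for all genes. Prph, Th and Rxrg were tested and not called, and Calb2 and Ano2 lay below the filter. The 5 calls were also made with DESeq2, limma-voom, other scalings and with the summed macrophage and glial markers as covariates. Without Isl1CKO libraries 2, 3 and 5 the Pvalb call was lost and the other 4 stood.

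**Figure D1:**
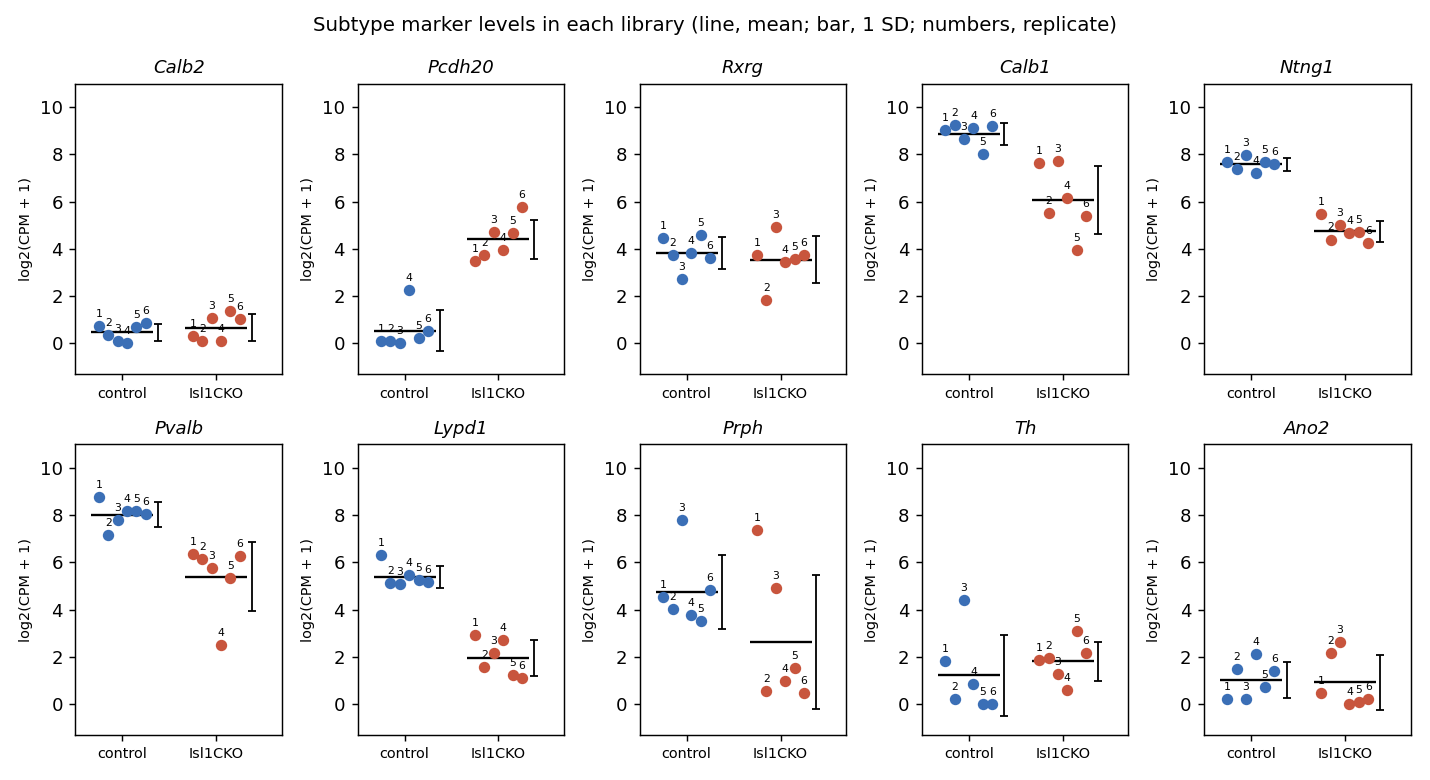
Level of each of the 10 marker genes in the 12 libraries as log2(CPM + 1), with a point for each library numbered by replicate, a line at the group mean and a bar of 1 SD. Calb1, Pvalb, Lypd1 and Ntng1 lie lower and Pcdh20 higher in all 6 libraries labelled Isl1CKO, whereas Prph and Th spread widely within a group.

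Calb2, Pcdh20 and Rxrg are known from the same type I subtype of the mature ganglion, and they behaved differently here. Calb2 (chr8:110137502-110168210, minus strand) encodes calretinin, an EF-hand calcium buffer, and was barely detected. It had 0 to 11 counts in control libraries and 1 to 22 counts in those labelled Isl1CKO, with levels of 0 to 0.805 and 0.0747 to 1.60 CPM. The ranges of the groups overlapped. With no filter its log2 ratio was 0.73 ± 0.94 (SE; edgeR adjusted p = 0.759). No difference in Calb2 was thus detected, and with so few counts a fall or a small rise could have been missed.

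Pcdh20 (chr14:88464743-88471396, minus strand, GRCm38 with GENCODE M21) encodes a protocadherin, a cell adhesion protein of the cadherin superfamily, and was the only member called higher. Its levels in control replicates 1 to 6 were 0.0831, 0.0740, 0, 3.85, 0.159 and 0.439 CPM. In replicates 1 to 6 labelled Isl1CKO they were 10.3, 12.6, 25.7, 14.6, 24.4 and 54.6 CPM. The lowest library labelled Isl1CKO thus lay above control 4, the highest control, and 4 of the 6 controls were at or under the floor of 3 counts. Group means came to 0.768 ± 1.52 and 23.7 ± 16.4 CPM (SD, n = 6), which gives a log2 ratio of 4.91 ± 0.91 (SE; edgeR adjusted p = 0.00238). Control 4 held 52 counts and the other controls at most 6, and without it the log2 ratio was 7.16 (edgeR adjusted p = 1.73e-05). Without Isl1CKO libraries 2, 3 and 5 it was 5.07 (edgeR adjusted p = 0.0239).

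Rxrg (chr1:167598384-167639623, plus strand) encodes a retinoid X receptor, a nuclear receptor that pairs with other nuclear receptors on DNA. Control libraries held 5.67 to 23.1 CPM with a median of 12.8, and libraries labelled Isl1CKO held 2.56 to 29.3 CPM with a median of 11.7. The groups overlapped almost wholly. The log2 ratio was -0.15 ± 0.44 (SE; edgeR adjusted p = 0.878), and its sign turned without control 5 or without Isl1CKO 2.

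Calb1 (chr4:15881264-15908064, plus strand) and Pvalb (chr15:78191114-78206400, minus strand) encode the calcium buffers calbindin and parvalbumin, and each fell to about the same share of its control mean. Calb1 stood at 521, 613, 404, 557, 259.8 and 584 CPM in control replicates 1 to 6. In replicates 1 to 6 labelled Isl1CKO it stood at 200.3, 44.5, 210.4, 71.2, 14.5 and 40.9 CPM. All libraries labelled Isl1CKO were below the lowest control, with replicates 1 and 3 closest to it and replicate 5 far under. Group means came to 490 ± 134 and 97.0 ± 85.9 CPM (SD, n = 6), which gives a log2 ratio of -2.34 ± 0.57 (SE; edgeR adjusted p = 0.0228). The SD of log2(CPM + 1) was 0.47 in controls and 1.45 in the libraries labelled Isl1CKO.

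Pvalb stood at 442, 141, 221, 286, 291 and 265 CPM in control replicates 1 to 6, and at 82.0, 70.2, 52.8, 4.63, 39.8 and 76.5 CPM in replicates 1 to 6 labelled Isl1CKO. The groups did not overlap, and Isl1CKO 4 lay far below the other 5 of its group. Group means came to 275 ± 99.1 and 54.3 ± 29.0 CPM (SD, n = 6), which gives a log2 ratio of -2.34 ± 0.48 (SE; edgeR adjusted p = 0.00654). Without Isl1CKO 4 the log2 ratio was -2.10 (edgeR adjusted p = 1.82e-04). Without Isl1CKO libraries 2, 3 and 5 it was -2.34, and the call was lost (edgeR adjusted p = 0.111). The level of Calb1 as a share of its control mean was 19.8%, and that of Pvalb was also 19.8%. The libraries that were lowest for each differed, with Isl1CKO 5 lowest for Calb1 and Isl1CKO 4 for Pvalb.

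Ntng1 (chr3:109780040-110144011, minus strand) encodes netrin-G1, a membrane-anchored axonal protein that binds the postsynaptic ligand encoded by Lrrc4c. Control replicates 1 to 6 held 207, 165, 254, 146, 202 and 191 CPM, and replicates 1 to 6 labelled Isl1CKO held 43.6, 20.1, 31.1, 24.5, 25.3 and 18.1 CPM. The groups lay far apart, with a coefficient of variation of 19.3% in controls and 34.2% in the other group. Group means came to 194 ± 37.5 and 27.1 ± 9.27 CPM (SD, n = 6), which gives a log2 ratio of -2.84 ± 0.21 (SE; edgeR adjusted p = 5.01e-07). Its p ranked 22 among 14813 genes. Without any 1 library the log2 ratio of Ntng1 stayed between -3.03 and -2.75.

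Lypd1 (chr1:125867622-125913101, minus strand) encodes a membrane-anchored Ly6-family protein that binds nicotinic acetylcholine receptors, and it showed the deepest fall of the 8 tested genes. Its control levels were 78.6, 34.0, 33.04, 43.3, 37.3 and 34.6 CPM in replicates 1 to 6, against 6.65, 1.94, 3.54, 5.53, 1.39 and 1.14 CPM in those labelled Isl1CKO. Control 1 was high and the other 5 controls were close together, and every library labelled Isl1CKO was far below them. Group means came to 43.5 ± 17.6 and 3.36 ± 2.30 CPM (SD, n = 6), which gives a log2 ratio of -3.69 ± 0.43 (SE; edgeR adjusted p = 4.43e-05). Between 15 and 84 counts supported each library labelled Isl1CKO. In the annotation exons of Lypd1 overlap Gpr39 on the opposite strand, and since the use of strand in counting is not given in the sources used here, reads of the 2 genes cannot be told apart. Gpr39 was not analysed here.

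**Figure D2:**
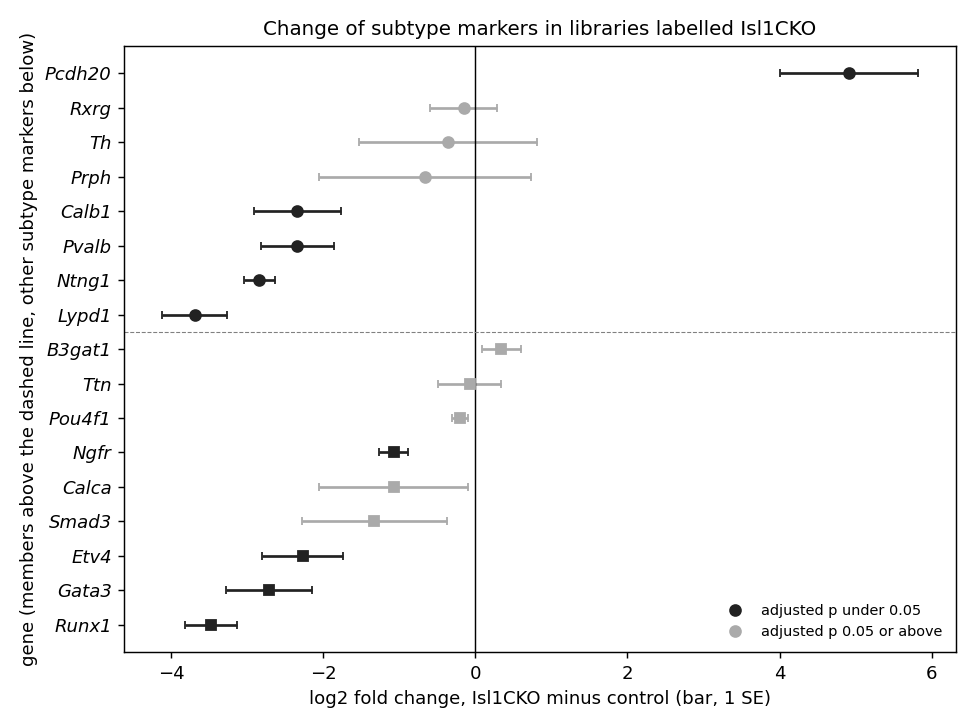
Log2 ratio, Isl1CKO minus control, with a bar of 1 standard error for the 8 tested members (circles, above the dashed line) and 9 other subtype markers (squares). Dark symbols passed an adjusted p of 0.05, namely Pcdh20 on the right and Calb1, Pvalb, Ntng1, Lypd1, Ngfr, Etv4, Gata3 and Runx1 on the left.

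The type II markers Prph and Th were high in a few libraries and did not pass the test. Prph (chr15:99055174-99058978, plus strand) encodes peripherin, an intermediate filament protein that other peripheral neurons also make. It stood at 21.9, 15.4, 224, 12.5, 10.5 and 27.9 CPM in control replicates 1 to 6, and at 165, 0.466, 29.1, 0.971, 1.90 and 0.381 CPM in replicates 1 to 6 labelled Isl1CKO. Control 3 and Isl1CKO 1 were high, Isl1CKO 3 lay at the level of the upper controls, and the other 4 libraries labelled Isl1CKO were below all controls. The log2 ratio was -0.66 ± 1.39 (SE; edgeR adjusted p = 0.825). It was -2.98 without Isl1CKO 1 (edgeR adjusted p = 0.215) and 0.89 without control 3 (edgeR adjusted p = 0.775), so neither the size nor the sign held. With the replicate number as a block it was -2.89 and with limma-voom -2.85, also not called. Tlx3, made by vestibular and other sensory neurons, was at most 2.36 CPM in all libraries. Control 3 also had the largest mitochondrial share of counts, at 1.65%. It held the most of the hair cell markers Pou4f3 and Otof of all libraries, at 2.67 and 7.26 CPM. The part of these in the Prph values was not tested.

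Th (chr7:142892752-142931128, minus strand) encodes tyrosine hydroxylase, the rate-limiting enzyme of catecholamine synthesis. It stood at 2.58, 0.148, 20.0, 0.815, 0 and 0 CPM in control replicates 1 to 6 and at 2.61, 2.87, 1.43, 0.523, 7.44 and 3.43 CPM in replicates 1 to 6 labelled Isl1CKO. Control 3, the library with the most Prph, held 240 counts against at most 31 in the other controls, and 3 of the 6 controls were at or under the floor. All 6 libraries labelled Isl1CKO were above the floor. The log2 ratio was -0.36 ± 1.17 (SE; edgeR adjusted p = 0.895), and without control 3 it was 2.10 (edgeR adjusted p = 0.274).

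Ano2 (chr6:125690419-126040126, plus strand) encodes a calcium-activated chloride channel and was low and uneven between libraries. Control libraries held 2 to 46 counts, or 0.166 to 3.41 CPM, and libraries labelled Isl1CKO held 0 to 70 counts, or 0 to 5.27 CPM. Isl1CKO 2 and 3 were the highest of all 12, and the other 4 of that group had at most 5 counts. With no filter the log2 ratio was 0.27 ± 1.09 (SE; edgeR adjusted p = 0.942).

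Levels were set side by side between genes as CPM per kb of annotated exon. In controls Pvalb led at 264 ± 95.2, followed by Calb1 at 101 ± 27.6, and every control library had more Pvalb than any had Calb1 on this scale. Prph at 26.1 ± 42.3 and Ntng1 at 23.6 ± 4.55 came next and overlapped, and Ntng1 was above Prph in 5 of 6 controls. Rxrg and Lypd1 followed at 6.28 ± 2.85 and 6.18 ± 2.50 CPM per kb and did not differ beyond their spread. Th, Ano2, Calb2 and Pcdh20 were last, at 1.66 ± 3.36, 0.240 ± 0.232, 0.237 ± 0.192 and 0.140 ± 0.277, with overlapping ranges (SD, n = 6). In the libraries labelled Isl1CKO the first 3 places were the same, with Pvalb at 52.2 ± 27.8, Calb1 at 20.0 ± 17.7 and Prph at 16.5 ± 32.8 CPM per kb. Pcdh20 moved from last to the fifth place, at 4.31 ± 2.99, and Lypd1 fell to the eighth, at 0.478 ± 0.326. In this group each neighbour in the order overlapped the next.

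The members also differed in how much they varied between libraries of 1 group. The SD of log2(CPM + 1) of Ntng1 in controls, 0.28, exceeded that of 51.2% of tested genes with a mean of at least 10 CPM, and its SD of 0.44 in the libraries labelled Isl1CKO exceeded that of 82.6%. The same SD of Prph was 1.58 in controls and 2.85 in the libraries labelled Isl1CKO, above 99.6% and 99.9% of those genes. Among the 28 pairs of tested members, Prph and Ntng1 deviated together most closely from their group means in log2 CPM, with a Pearson's r of 0.92 and Spearman's rho of 0.85 over 12 libraries. This pair was singled out after its values were seen, and the points share library depth and scaling. Without Isl1CKO 1 and control 3, the libraries farthest from the median of Prph, r was 0.78. The r was 0.76 in the 6 controls and 0.97 in the 6 libraries labelled Isl1CKO.

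**Figure D3:**
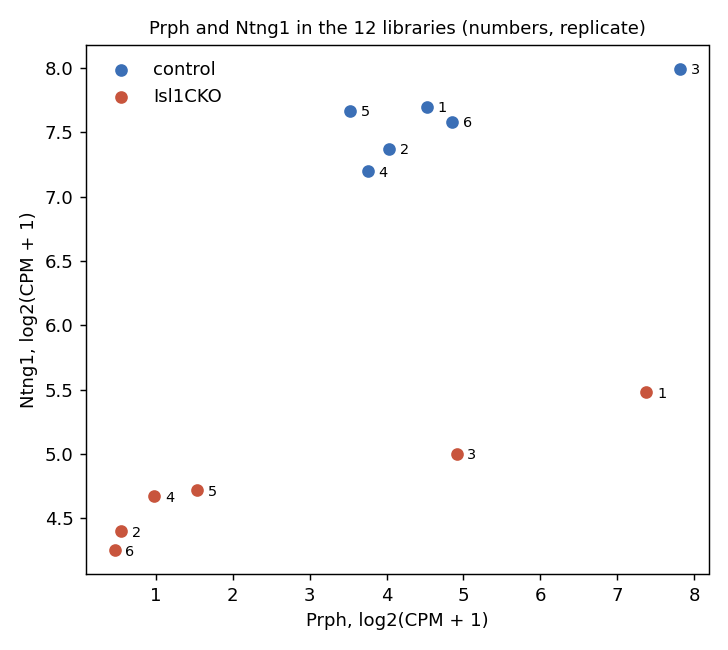
Prph (horizontal) against Ntng1 (vertical) in each of the 12 libraries, as log2(CPM + 1), with replicate numbers beside the points. The 2 groups form separate bands because Ntng1 was lower in all libraries labelled Isl1CKO, and within each group the library with the most Prph, control 3 or Isl1CKO 1, also had the most Ntng1.

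Of all tested genes, Ntng1 had the deviations most like those of Prph, and Scn7a came next (r = 0.91, n = 12 libraries). For Ntng1 the closest were Prph and Sdr39u1 (r = 0.91 for the latter). For Calb1 they were Pea15a and Ostf1 (r = 0.95 and 0.93), for Pvalb Gm7125 and Gm15506 (r = 0.93 and 0.92), for Lypd1 Pltp (r = 0.95), for Pcdh20 Cyfip1 and Rab3ip (r = 0.91 and 0.90), and for Rxrg Vps53 and Ebag9 (r = 0.91 and 0.90). These are the highest values among all tested genes over 12 libraries, which share depth and scaling, and serve as a description.

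The members were also read beside 13 other genes known as markers of type I subtypes or type II neurons. Of these, 12 were in the table, 10 were tested, 4 were called lower, beside 5.19% of all tested genes, and the median log2 ratio was -1.10. Runx1, a transcription factor of the Lypd1-high subtype, ranged from 36.7 to 72.0 CPM in controls and from 1.46 to 7.44 CPM in the other group, a log2 ratio of -3.47 (edgeR adjusted p = 9.65e-06). Pou4f1, another factor of that subtype, stood at 1068 ± 149 and 929 ± 115 CPM (SD, n = 6) and was not called (edgeR adjusted p = 0.249). Gata3, Etv4 and Ngfr, which mature type II neurons keep, went from 1474 ± 257 to 225 ± 174, from 67.3 ± 18.0 to 13.99 ± 14.1, and from 221 ± 42.1 to 105 ± 30.8 CPM (SD, n = 6). Their edgeR adjusted p were 0.00961, 0.0131 and 0.00177, and the Etv4 call was lost without Isl1CKO libraries 2, 3 and 5, at a log2 ratio of -1.81 (edgeR adjusted p = 0.0784). B3gat1, Ttn, Smad3 and Calca were not called, and Grm8 and Plk5 were below the filter.

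Paralogs and pathway partners of the members were then counted in lists arranged by family. Of 91 genes, 80 were in the table, 65 were tested, 13 were called lower and 12 higher. Without Isl1CKO libraries 2, 3 and 5 these were 8 and 7. Over all tested genes 10.2% were called, 5.19% lower and 5.01% higher, and the counts of each list are to be read beside these shares. Among 12 tested EF-hand calcium sensors and buffers, 2 were called lower and 1 higher. Necab2, a neuronal calcium-binding protein, went from 80.3 ± 9.70 to 20.9 ± 4.73 CPM (SD, n = 6; edgeR adjusted p = 2.20e-06), and Hpcal1, a calcium sensor of the visinin family, from 171 ± 25.9 to 77.9 ± 17.5 CPM (edgeR adjusted p = 1.10e-04).

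Beside Prph, 3 of 7 tested intermediate filament genes were called lower. The neurofilament genes Nefm and Nefl had log2 ratios of -1.92 and -1.38 (edgeR adjusted p = 2.63e-04 and 3.17e-04). In the annotation their exons overlap on opposite strands, and since the use of strand is not given, reads in the overlap cannot be told apart. Nefm ranged from 2681 to 3693 CPM in controls and from 345 to 1611 CPM in the libraries labelled Isl1CKO, with Isl1CKO 1 the highest of its group as for Prph. Beside Th, 10 catecholamine genes were tested, 1 was called lower and 2 higher. Slc18a2, the vesicular monoamine transporter, had a log2 ratio of 1.13 and Maoa, a monoamine oxidase, of 0.69 (edgeR adjusted p = 0.0165 and 0.0298). Without Isl1CKO libraries 2, 3 and 5 these calls were lost, at log2 ratios of 1.17 and 0.55 (edgeR adjusted p = 0.0767 and 0.275), and the Maoa call was also lost when any of 6 single libraries was left out, with edgeR adjusted p up to 0.0708. Ddc, the next enzyme after Th, was at 1.66 ± 1.62 and 2.20 ± 0.962 CPM (SD, n = 6) and was not called.

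Beside Pcdh20, 9 delta protocadherins were tested, 7 were called higher and 1 lower. Pcdh8, with 0 or 1 count per control library, was higher by at least 58.1-fold, taken against the mean floor of the controls (edgeR adjusted p = 3.97e-06). Pcdh10 went from 36.6 ± 20.4 to 255 ± 41.8 CPM (SD, n = 6; edgeR adjusted p = 1.24e-05). Pcdh7 was the exception that fell, with a log2 ratio of -0.64 (edgeR adjusted p = 0.0252), and Pcdh1 was not called. The median log2 ratio of the list was 1.63, beside 0.0045 for all genes.

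Beside Ntng1, its paralog Ntng2 was lower and its ligand gene Lrrc4c was higher. Ntng2 had a log2 ratio of -1.95 (edgeR adjusted p = 0.0198), with the call lost without Isl1CKO libraries 2, 3 and 5, at -1.40 (edgeR adjusted p = 0.226). Lrrc4c went from 26.2 ± 11.3 to 113 ± 38.4 CPM (SD, n = 6; edgeR adjusted p = 2.13e-04), and Lrrc4 and Lrrc4b were not called. Beside Lypd1, 5 genes were tested, and Lypd6 had a log2 ratio of -2.33 and Ly6e of 0.62 (edgeR adjusted p = 0.00599 and 0.00934). Both calls were lost without Isl1CKO libraries 2, 3 and 5, at log2 ratios of -2.11 and 0.57 (edgeR adjusted p = 0.0842 and 0.0628), and that of Ly6e with the replicate number as a block (edgeR adjusted p = 0.0537).

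Beside Rxrg, 12 retinoid genes were tested and 2 were called lower. Stra6, a retinol transporter, had a log2 ratio of -1.18 (edgeR adjusted p = 0.00568), while Rxra, Rxrb, Rara and Rarb were not called. Beside Ano2, 6 anoctamins were tested and Ano4 and Ano6 were called lower, with log2 ratios of -1.84 and -0.53 (edgeR adjusted p = 0.00379 and 0.0437). Without Isl1CKO libraries 2, 3 and 5 both calls were lost, with Ano4 at -1.83 and Ano6 at -0.33 (edgeR adjusted p = 0.0610 and 0.361), and the Ano6 call was lost without any of 9 single libraries, with edgeR adjusted p up to 0.102.

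**Figure D4:**
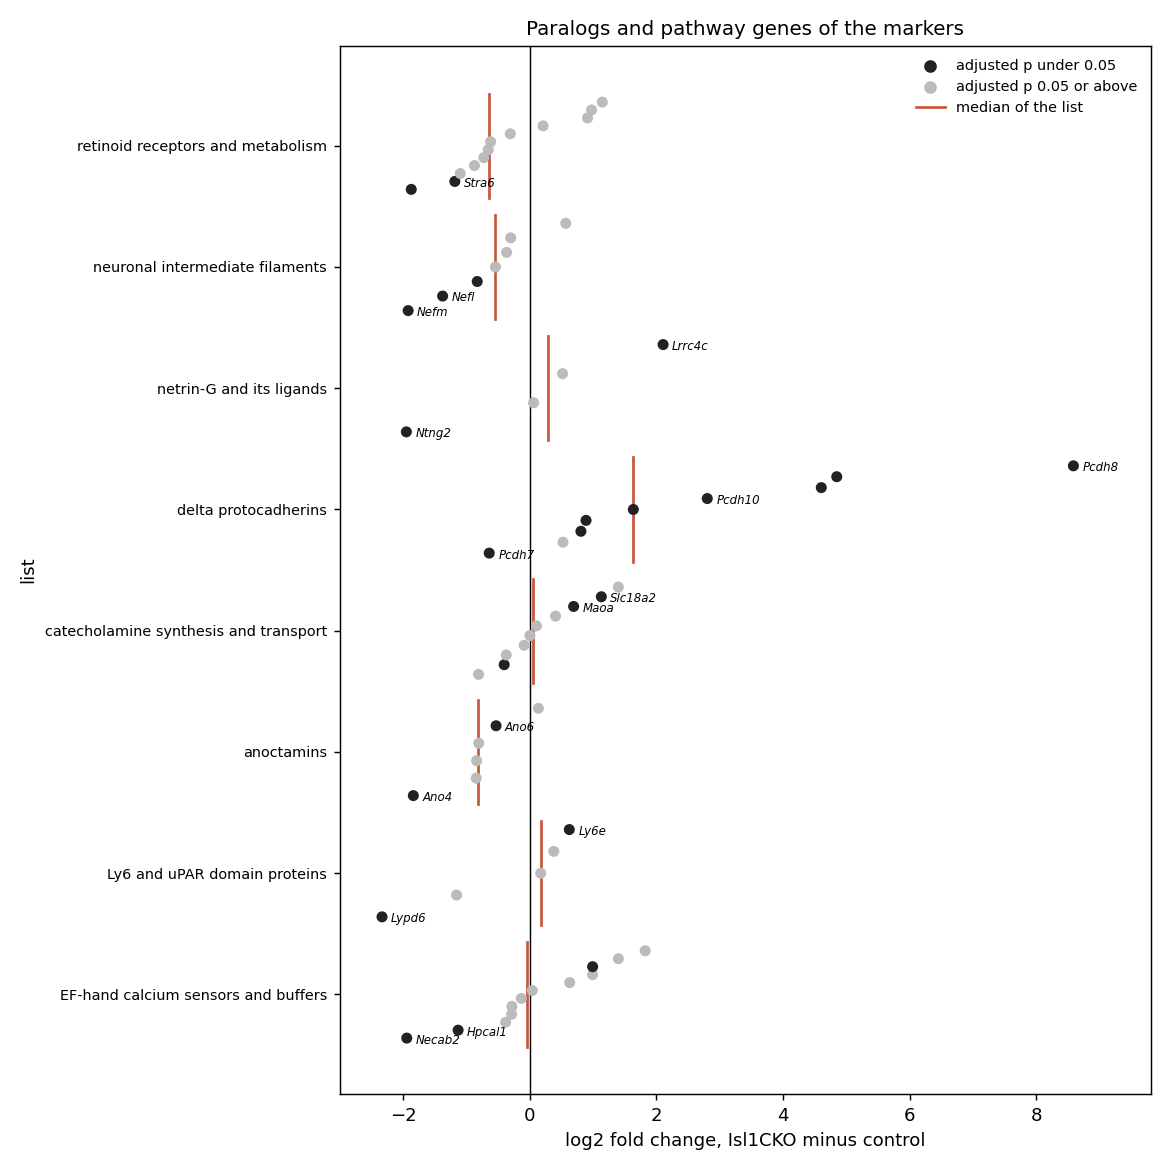
Log2 ratio, Isl1CKO minus control, of the 65 tested paralogs and pathway genes in 8 lists, with a red line at the median of each list. Dark points passed an adjusted p of 0.05, with the genes given in the text named, and 7 of the 9 delta protocadherins are dark points on the right of zero.

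Promoter sequence was read for a marker that fell, a marker that rose and a marker that was not called, to show the DNA before each start. RefSeq promoters on GRCm38.p6 were found for 8 of the 10 genes, and the 250 bases before the start of Pvalb (chr15:78206401-78206650, minus strand), Pcdh20 (chr14:88471397-88471646, minus strand) and Prph (chr15:99054924-99055173, plus strand) hold no annotated exon. They are written 5′ to 3′, with motif matches in capitals.
Pvalb: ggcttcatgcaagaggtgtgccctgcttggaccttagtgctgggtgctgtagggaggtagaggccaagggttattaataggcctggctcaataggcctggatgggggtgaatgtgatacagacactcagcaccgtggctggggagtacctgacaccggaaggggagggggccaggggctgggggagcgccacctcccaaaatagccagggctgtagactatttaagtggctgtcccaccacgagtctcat
Pcdh20: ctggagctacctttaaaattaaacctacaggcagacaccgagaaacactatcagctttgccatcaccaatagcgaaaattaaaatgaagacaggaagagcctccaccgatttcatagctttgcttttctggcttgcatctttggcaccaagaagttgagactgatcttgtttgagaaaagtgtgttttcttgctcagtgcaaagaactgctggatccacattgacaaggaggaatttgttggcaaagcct
Prph: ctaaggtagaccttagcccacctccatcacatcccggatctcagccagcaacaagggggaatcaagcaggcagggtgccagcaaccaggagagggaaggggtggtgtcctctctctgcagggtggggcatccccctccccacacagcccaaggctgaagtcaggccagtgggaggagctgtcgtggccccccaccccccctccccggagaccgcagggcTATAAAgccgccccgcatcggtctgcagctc
Both strands were searched for the homeodomain core TAATTA, the ISL1-type core CTAATG, the E-box CAGATG, the GATA-type core AGATAA and the TATA element TATAAA. Over 32851 RefSeq promoters of the same length, 4.84%, 6.36%, 14.4%, 9.99% and 12.4% hold them, in that order. The Pvalb and Pcdh20 windows hold none of these 5 letter strings. The Prph window holds TATAAA, with its first base 31 bases before the start.

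Isl1CKO 1 was the highest of its group for Prph, Ntng1, Pvalb and Lypd1 and the lowest for Pcdh20. Over all genes called lower it was the highest of the 6 libraries labelled Isl1CKO for 259 of 769, or 33.7%, and over all genes called higher it was the lowest for 198 of 742, or 26.7%. The next was Isl1CKO 3, at 21.6% and 24.1%. Without Isl1CKO 1 the log2 ratios of Calb1, Pvalb and Pcdh20 were -2.68, -2.50 and 5.06 (edgeR adjusted p = 0.0140, 0.00940 and 0.00282).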

How the data were processed

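RNA was measured in 12 libraries of sorted neurons, 6 per genotype. The authors deposited whole-number counts per Ensembl gene, not normalized, and the submitters' processing notes name cutadapt 1.18, Bowtie 1.2.2, STAR 2.7.0c, featureCounts and GRCm38.p6, with no role or order. The annotation and the use of strand are not given in the sources used here. Symbols were matched for 25620 of 25674 identifiers, and lengths and overlaps came from GENCODE M21. Of the genes in the lists, 21 were not analysed here.

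Counts were tested with edgeR 4.0.16 in R 4.3.3: filterByExpr with a minimum count of 10, TMM scaling, the robust quasi-likelihood F-test without covariate, and Benjamini-Hochberg adjustment over 14813 genes at 0.05. A standard error is the absolute log2 ratio (fold change) divided by the square root of F. DESeq2 1.42.0, limma 3.58.1, other scalings and filters, covariates, the replicate block and omitted libraries served as alternatives. On simulated counts for this comparison (14390 genes tested), edgeR recovered 53.6% of genes altered by 1 and 80.2% of those altered by 2 on the log2 scale, with 3.10% false calls, and DESeq2 made 20.7% false calls. No 2 libraries agreed within sampling noise. The members and lists were chosen with earlier results of these data known. Named genes are all members and Isl1, each called gene among the other subtype markers, the called genes with the smallest p in each family list, at most 2, and the 2 genes with the closest deviations for members of at least 10 CPM. Other genes named beside them were chosen after their values were seen. A few genes that these rules name are not reported here.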

Additional observations from a re-analysis of the deposited data

Results flagged for a closer look

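For each of the 10 genes and both groups, 20 group values in all, the library farthest from the other 5 was checked by Dixon's criterion on log2(CPM + 1). It marked 4, where chance gives about 1. Lypd1 in control 1 was high at 78.6 CPM. Pcdh20 in control 4 was high at 3.85 CPM among controls otherwise at or below 0.439 CPM. Prph in control 3 was high at 224 CPM. Pvalb in Isl1CKO 4 was low at 4.63 CPM, against 39.8 CPM in the next lowest library of its group.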

How the results depend on the processing

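The 5 calls among the members kept their direction and their side of the threshold under every alternative run, except Pvalb without Isl1CKO libraries 2, 3 and 5. That omission also lowered the number of all genes called from 1511 to 767 and that of paralogs and pathway genes from 25 to 15, with fewer libraries in the fit. Leaving out 1 library at a time gave 1178 to 1517 genes called in all, 5 members, 4 to 5 other subtype markers and 21 to 26 paralogs and pathway genes. The replicate block gave 1450 genes called in all and 5 members. Deviations of same-numbered libraries correlated at -0.0550 to 0.150, which cannot tell whether they shared a litter, a sort or a batch. The log2 ratio of Prph ran from -2.98 to 0.89 when 1 library was left out, turning sign without control 3, and was 0.0902 without Isl1CKO libraries 2, 3 and 5. That of Th ran from -0.85 to 2.10, turning sign without control 3, and was 2.38 with limma-voom, 1.86 with the replicate block and 1.26 with macrophage and Schwann cell covariates. That of Rxrg ran from -0.57 to 0.0587, positive without control 5 (0.0294) and without Isl1CKO 2. None of these values was called, and the cause was not tested. Over the 29 single genes tried, 602 of 637 alternative values kept direction and side of the threshold. Low counts limit what can be said of Calb2, with at most 22 in a library.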
